A study of Mus musculus with 18 samples.

Results

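The fatty acid elongases and desaturases were followed in livers of bisphenol A-fed mice through every array probe that the scanner files name Elovl2, Elovl3, Elovl5, Elovl6, Scd1, Scd2, Fads1 or Fads2. This gave 9 of 41174 probes, 2 of them for Elovl5 and 1 for each other gene, and all 9 were among the 25427 probes kept for testing because they were well above background on at least 6 of 18 arrays. The study asked how bisphenol A, a plastics monomer with weak estrogenic activity, acts on gene expression in the liver. Male CD-1 mice, an outbred stock, ate powdered diet for 28 days and were 9 weeks old. The control diet delivered 0, the low dose 50 and the high dose 5000 µg of bisphenol A per kg of body weight per day, with 6 mice in each group. The low dose is called the tolerable daily intake in the labels and the high dose the no-observed-adverse-effect level. Intake was set from an assumed food consumption, not measured per mouse. Total RNA came from a fragment of the large lobe, and each mouse had 1 Cy3-labelled array.

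Elongases add carbons to a fatty acyl-CoA and carry out the first, rate-limiting condensation of the elongation cycle in the endoplasmic reticulum, while desaturases insert a double bond with electrons passed through cytochrome b5. In the liver, palmitate made by fatty acid synthase is lengthened to stearate by Elovl6 and turned into oleate by Scd1, both of which are stored and exported in triglyceride. Fads1, Fads2, Elovl5 and Elovl2 instead work on dietary essential fatty acids and make arachidonic and docosahexaenoic acid. The transcription factor SREBP-1c is a known activator of most of these genes, and LXR, ChREBP and PPAR-alpha are known to act on some of them.

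Promoters are shown because the members share known regulators. RefSeq sequences of GRCm38.p6 were given for 4 of the 8 members, and those of Elovl6, Elovl5 and Fads2, which are the member that passed the test, an elongase and a desaturase of polyunsaturated fatty acids, are printed as the 250 bases before the start site, 5′ to 3′. Capitals mark matches, on either strand, to the letters searched. The Elovl6 promoter is at chr3:129532136-129532385 (plus strand), that of Elovl5 at chr9:77917115-77917364 (plus strand) and that of Fads2 at chr19:10101504-10101753 (minus strand).
Elovl6: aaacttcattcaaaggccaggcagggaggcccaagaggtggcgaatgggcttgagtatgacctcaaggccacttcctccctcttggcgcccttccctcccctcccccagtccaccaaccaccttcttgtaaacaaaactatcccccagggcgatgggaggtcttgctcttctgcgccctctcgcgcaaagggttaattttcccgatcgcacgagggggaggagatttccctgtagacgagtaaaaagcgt
Elovl5: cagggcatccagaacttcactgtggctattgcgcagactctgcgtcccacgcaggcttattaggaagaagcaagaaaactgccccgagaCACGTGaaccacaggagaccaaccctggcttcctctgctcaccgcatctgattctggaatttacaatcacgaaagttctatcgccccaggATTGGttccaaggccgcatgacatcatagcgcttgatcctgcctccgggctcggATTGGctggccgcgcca
Fads2: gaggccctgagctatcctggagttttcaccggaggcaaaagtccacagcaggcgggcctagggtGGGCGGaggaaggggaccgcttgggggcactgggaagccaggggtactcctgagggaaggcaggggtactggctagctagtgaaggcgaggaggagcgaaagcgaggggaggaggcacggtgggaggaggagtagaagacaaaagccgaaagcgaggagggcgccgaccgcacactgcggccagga
The search used the sterol-element-like string TCACNCCAC, the CCAAT box, the GC box GGGCGG, the E-box CACGTG and the direct repeat known as DR4 that LXR binds. No matches overlapped. The Elovl5 window held CCAAT on the minus strand with its first base 71 and 17 bases before the start and the E-box 161 bases before it. The Fads2 window held GGGCGG once, 186 bases before the start. No search string was in the Elovl6 window. Over all 32851 promoters of the same length, 1.05% held the sterol-element-like string, 33.9% CCAAT, 32.7% GGGCGG, 6.02% the E-box and 0.0152% the DR4 repeat. The GC content was 56.4% for Elovl6, 55.6% for Elovl5 and 64.8% for Fads2, beside a median of 52.4% over all promoters.

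Levels are given as log2 of the background-subtracted spot intensity minus the array's 75th percentile, so that 0 is the intensity below which 75 of 100 probes of that array lie. The brightness of different probes is not compared. Control arrays were dimmer before scaling, with a 75th percentile of 223 ± 41.2 intensity units in control, 282 ± 41.2 in low-dose and 280 ± 33.3 in high-dose livers (SD, n = 6 each). Levels of any pair of arrays correlated at 0.954 to 0.986 over probes. High-dose mouse 2 had the lowest mean correlation with the others, at 0.965 against 0.971 to 0.978 for the remaining 17 arrays. The arrays lay on 5 slides, taken from shared scan times. All 5 held both doses and 4 also held controls. All 8 hepatocyte markers on the array were well above background on 18 of 18 arrays, and Alb was saturated on every array.

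Elovl6, the enzyme that lengthens palmitate to stearate, was the only member past the threshold, at the low dose against control. Its probe lies at chr3:129630352-129630411 in build mm8. At the low dose the 6 livers had levels of 7.09, 4.98, 5.72, 4.61, 6.16 and 6.95, against 3.34, 3.47, 4.43, 4.00, 4.07 and 3.50 in the 6 control livers. Every low-dose liver lay above every control liver, although the lowest low-dose mouse stood only slightly above the highest control. Means were 5.92 ± 1.01 at the low dose and 3.80 ± 0.43 in controls (SD, n = 6 each), which is a log2 fold change of 2.12 ± 0.39 (SE), or 4.34-fold with a 95% interval of 2.44 to 7.70 (limma, adjusted p = 0.0354). The spread between livers was also wider at the low dose. The probe was saturated on no array.

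Elovl6 did not pass the threshold at the high dose. The high-dose livers had Elovl6 levels of 3.87, 4.07, 3.90, 5.11, 3.56 and 4.82, so 4 of them lay within the control range and mice 4 and 6 above it. The mean was 4.22 ± 0.61 (SD, n = 6), a log2 fold change of 0.42 ± 0.39 (SE) against control, with a 95% interval of -0.41 to 1.25 (adjusted p = 0.851). Without high-dose mouse 4 it was 0.24, the lowest value with any 1 mouse left out. The high dose against the low dose gave -1.70 ± 0.39 (SE), with an unadjusted p of 4.46e-04 and an adjusted p of 0.154, so the difference between the doses did not pass the threshold. Of the high-dose livers, 4 lay below every low-dose liver. The order of the Elovl6 means was low dose, high dose, control, and neither neighbouring pair in it differed past the threshold.

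Elovl6 was compared within slides. The files also give each array's position on its slide. Every control array was at position 1 or 4, and every low-dose array but that of mouse 5 was at 2 or 3. Position is thus largely confounded with this comparison, differences within slides do not remove it, and its part was not tested. It was higher at the low dose than in control on 4 of 4 slides, by 0.39 to 3.15 on the log2 scale. It was lower at the high than at the low dose on 5 of 5 slides, with differences of -2.76 to -0.61. With slide as a block the low-dose fold change was 1.87 and no longer passed (adjusted p = 0.166). With the array's brightness as a covariate it was 1.73 (adjusted p = 0.413), with the controls being the dimmer arrays. Leaving out single mice gave fold changes of 1.88 to 2.38 on the log2 scale, and the adjusted p was above 0.05 when any 1 of control mice 1, 2, 4, 5 and 6 or low-dose mice 1, 3, 5 and 6 was left out, reaching 0.104 without low-dose mouse 1.

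**Figure D1:**
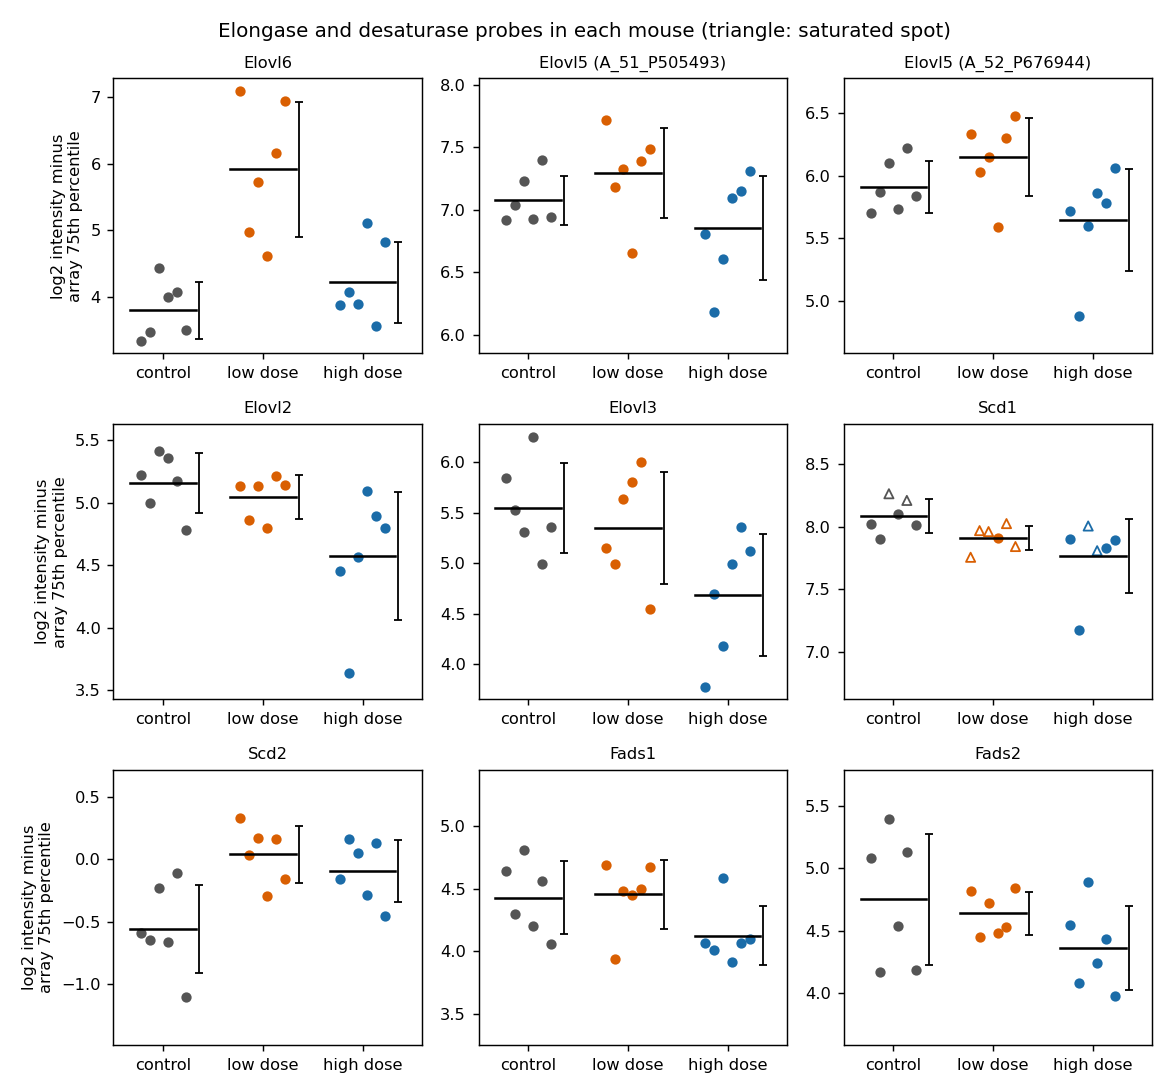
Level of each elongase and desaturase probe in each of the 18 livers, as log2 intensity minus the array's 75th percentile, by group in order of dose. Lines are means, error bars SD (n = 6), and triangles saturated spots, which occur only for Scd1. The Elovl6 panel has all 6 low-dose livers (4.61 to 7.09) above all 6 controls (3.34 to 4.43).

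Elovl5 lengthens polyunsaturated fatty acids and palmitoleate. It had 2 probes on chromosome 9 (mm8), at chr9:77770082-77770141 and chr9:77769477-77769536, on the same transcript. The first had a lowest, median and highest level of 6.92, 6.99 and 7.40 in control, 6.65, 7.36 and 7.72 at the low dose, and 6.18, 6.95 and 7.31 at the high dose. The second had 5.70, 5.85 and 6.23 in control, 5.59, 6.23 and 6.48 at the low dose, and 4.88, 5.75 and 6.06 at the high dose. Both probes placed the groups in the same order, low dose, control, high dose, with overlapping ranges, and their levels correlated at 0.96 over the 18 arrays.

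No neighbouring Elovl5 groups differed past the threshold. At the low dose against control the probes gave log2 fold changes of 0.22 ± 0.19 and 0.24 ± 0.18 (SE), with adjusted p = 0.714 and 0.654. At the high dose against control they gave -0.22 ± 0.19 and -0.26 ± 0.18, with adjusted p = 0.837 and 0.789. The ends of the order, high dose against low dose, differed by -0.43 ± 0.19 (adjusted p = 0.603) and -0.50 ± 0.18 (adjusted p = 0.476). High-dose mouse 2 was the lowest of all 18 livers on both probes, and without it the high-dose differences were -0.08 and -0.11 against control and -0.30 and -0.35 against the low dose.

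Elovl2, which lengthens the longest polyunsaturated precursors of docosahexaenoic acid, is measured at chr13:41194185-41194244 (mm8, minus strand). Its lowest, median and highest levels were 4.78, 5.20 and 5.42 in control, 4.79, 5.13 and 5.21 at the low dose, and 3.64, 4.68 and 5.09 at the high dose. Low-dose livers stayed inside the control range, while 3 of 6 high-dose livers lay below every control and below every low-dose liver. The high dose gave -0.58 ± 0.19 (SE) against control, with an unadjusted p of 0.00695 and an adjusted p of 0.609, and -0.47 ± 0.19 against the low dose (adjusted p = 0.563). The low dose gave -0.11 ± 0.19 against control (adjusted p = 0.871). Mouse 2 again had the lowest high-dose level, and without it the high-dose difference was -0.40 from control (adjusted p = 0.802) and -0.28 from the low dose. On slides it was lower at the high dose than in control on 4 of 4, with differences of -1.36 to -0.33. Both Elovl5 probes, Fads2 and Scd1 were also lower on 4 of 4.

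Elovl3 makes very long saturated and monounsaturated chains and is known from brown fat, skin and male mouse liver. Its probe is at chr19:46188583-46188642 (mm8). Lowest, median and highest levels were 4.99, 5.44 and 6.25 in control, 4.54, 5.39 and 6.00 at the low dose, and 3.78, 4.84 and 5.35 at the high dose. The groups overlapped, with 4 of 6 high-dose livers below every control and 2 of 6 below every low-dose liver. It had the largest high-dose difference from control among the members, -0.86 ± 0.29 (SE), with a 95% interval of -1.48 to -0.24 (unadjusted p = 0.00931, adjusted p = 0.631). The high-dose difference from the low dose was -0.67 ± 0.29 (adjusted p = 0.609), and the low-dose difference from control was -0.19 ± 0.29 (adjusted p = 0.856). The lowest high-dose levels were those of mice 1 and 3, at 3.78 and 4.18, followed by mouse 2 at 4.70. Without mouse 2 the high-dose difference from control was -0.86, and without mouse 1 it was -0.68. On slides Elovl3 was lower at the high dose than in control on 3 of 4, with differences of -1.82 to 0.24. Against the low dose it was lower on 4 of 5, with differences of -1.63 to 0.70.

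Scd1, the main hepatic stearoyl-CoA desaturase, makes oleate from stearate. Its probe, at chr19:44448208-44448267 (mm8, minus strand), had intensities of 38753 to 76228 and was saturated in 2 of 6 control, 5 of 6 low-dose and 2 of 6 high-dose livers. A saturated spot gives only a lower limit, so the Scd1 differences can be compressed. Before scaling, median intensities were 62533 in control, 69992 in low-dose and 64030 in high-dose livers, so neither dose was dimmer than control. The mean 75th percentile that was subtracted was 223 in control, 282 in low-dose and 280 in high-dose arrays. Its part in the lower scaled levels at the doses was not tested. Measured levels had a lowest, median and highest value of 7.90, 8.06 and 8.26 in control, 7.76, 7.93 and 8.03 at the low dose, and 7.18, 7.86 and 8.01 at the high dose. The ranges overlapped. After scaling, the 4 unsaturated high-dose livers all lay below every control, and the saturated ones cannot be placed. Before scaling, unsaturated high-dose mouse 1 had an intensity of 70997, above the highest control at 70765. The low dose gave -0.18 ± 0.12 (SE) against control (adjusted p = 0.604). The high dose gave -0.32 ± 0.12 against control (unadjusted p = 0.0154, adjusted p = 0.663), and -0.14 ± 0.12 against the low dose (adjusted p = 0.854). Without mouse 2 these were -0.20 and -0.024. The sign at the low dose turned under quantile normalisation (0.08), normexp background (0.12) and in the deposited table (0.03), so no direction is given for it.

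Scd2, the isoform prominent in brain and in the newborn, was near the 75th percentile of the arrays here. Its probe is at chr19:44359845-44359904 (mm8). Lowest, median and highest levels were -1.10, -0.62 and -0.11 in control, -0.29, 0.10 and 0.33 at the low dose, and -0.45, -0.05 and 0.16 at the high dose. Of the low-dose livers 4 of 6, and of the high-dose livers 3 of 6, lay above every control. The low dose gave 0.60 ± 0.16 (SE) against control, or 1.51-fold (unadjusted p = 0.00162, adjusted p = 0.126). The high dose gave 0.46 ± 0.16 against control (unadjusted p = 0.00986, adjusted p = 0.631) and -0.13 ± 0.16 against the low dose (adjusted p = 0.913). Scd2 did not pass the threshold in any comparison, and its means ran in the order low dose, high dose, control.

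Fads1 and Fads2 carry the front-end desaturation steps of polyunsaturated fatty acid synthesis and lie near each other on chromosome 19. The Fads1 probe, at chr19:10263085-10263144 (mm8), had a lowest, median and highest level of 4.05, 4.43 and 4.81 in control, 3.93, 4.49 and 4.69 at the low dose, and 3.92, 4.06 and 4.59 at the high dose. The Fads2 probe, at chr19:10131305-10131735 (mm8, minus strand), has genomic ends 431 bases apart, against 60 for the other member probes. Its lowest, median and highest levels were 4.17, 4.81 and 5.39 in control, 4.45, 4.63 and 4.84 at the low dose, and 3.98, 4.34 and 4.89 at the high dose. Ranges overlapped in every comparison of either gene, and in Fads2 the control livers spread the most, with an SD of 0.52 against 0.17 in low-dose and 0.33 in high-dose livers.

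At the low dose against control Fads1 gave 0.03 ± 0.15 (SE) and Fads2 -0.11 ± 0.21, with adjusted p = 0.968 and 0.886. The 95% intervals were -0.30 to 0.35 for Fads1 and -0.55 to 0.32 for Fads2, and both signs turned under some settings. The high dose gave -0.30 ± 0.15 for Fads1 (adjusted p = 0.723) and -0.39 ± 0.21 for Fads2 (adjusted p = 0.730) against control. Against the low dose it gave -0.33 ± 0.15 for Fads1 (unadjusted p = 0.0447, adjusted p = 0.634) and -0.28 ± 0.21 for Fads2 (adjusted p = 0.824).

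**Figure D2:**
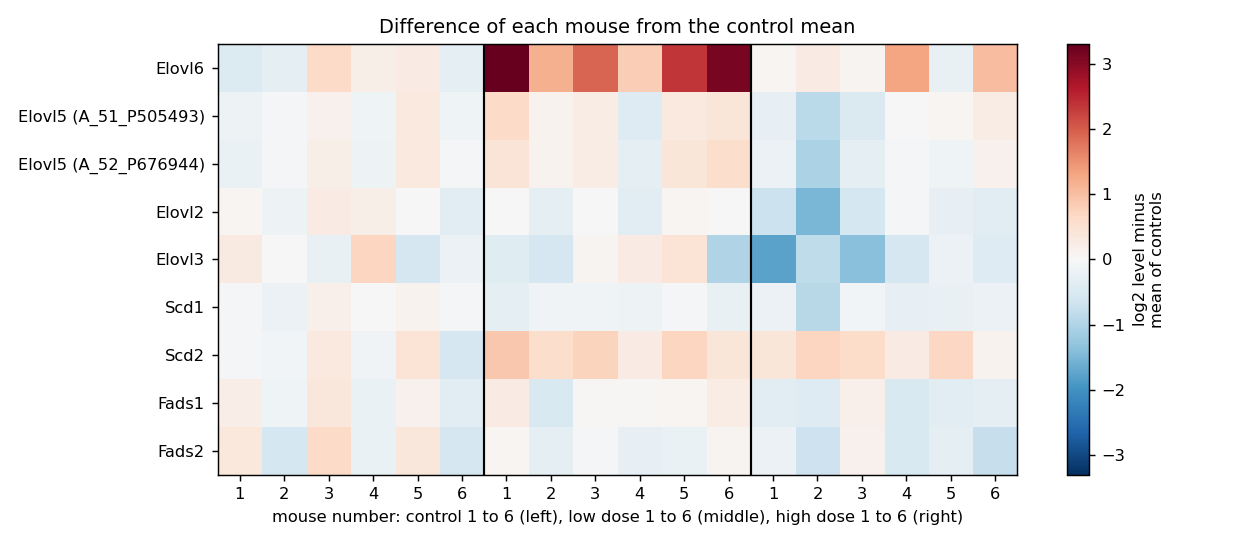
Difference of each of the 18 livers (columns, ordered by dose and mouse number) from the control mean for each elongase and desaturase probe (rows), in log2 units by colour. The Elovl6 row stands out in the low-dose block, and high-dose mouse 2 is low for Elovl2, both Elovl5 probes and Scd1.

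The 9 probes were then set against all probes tested. At the low dose against control 1 of 9 probes passed the threshold, higher, where 0.212% of 25426 tested probes did so in either direction, 0.165% higher and 0.0472% lower. An unadjusted p under 0.05 was reached by 2 of 9 probes, both higher (Elovl6 and Scd2), beside 12.2% of all probes, 6.28% higher and 5.95% lower. Groups that did not overlap were found for 1 of 9, beside 0.968% of all probes in the higher and 0.893% in the lower direction. The median over the 8 genes was -0.04, beside -0.00 over all probes.

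At the high dose against control 0 of 9 probes passed with limma, as did 0% of 25426 probes. An unadjusted p under 0.05 was reached by 3 genes in the lower direction (Elovl2, Elovl3 and Scd1), beside 3.64% of all probes, and by Scd2 in the higher direction, beside 3.46%, which makes 7.1% in either. This count of 4 was 3 with saturated spots set to missing, which concerns Scd1, 2 with array brightness as a covariate and 0 with normexp background. Groups overlapped for all 9 probes, and did not for 0.142% of all probes in the higher and 0.295% in the lower direction. The median over the 8 genes was -0.31, beside 0.00 over all probes. Of the 9 probes, 7 had a negative difference, all but Elovl6 and Scd2, where 50.8% of all probes had a positive one.

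At the high dose against the low dose all 9 probes had a negative difference, where 52.4% of all probes had a positive one. The threshold was passed by 0 of 9, beside 0.0433% of 25425 probes (0.00393% higher and 0.0393% lower). An unadjusted p under 0.05 was reached by 6 of the 9 probes (Elovl2, Elovl3, both of Elovl5, Elovl6 and Fads1), all lower, beside 4.42% of all probes in that direction, 3.21% in the other and 7.63% in either. Groups overlapped for all 9 probes, and did not for 0.138% of all probes in the higher and 0.409% in the lower direction. The median over the 8 genes was -0.38, beside 0.01 over all probes. The count of 6 was 2 without high-dose mouse 2 and 3 without low-dose mouse 3, low-dose mouse 5 or high-dose mouse 1. The probes are not independent, since 2 are of Elovl5 and the levels of several members correlated across livers. The comparisons share groups, so their values do not support one another.

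**Figure D3:**
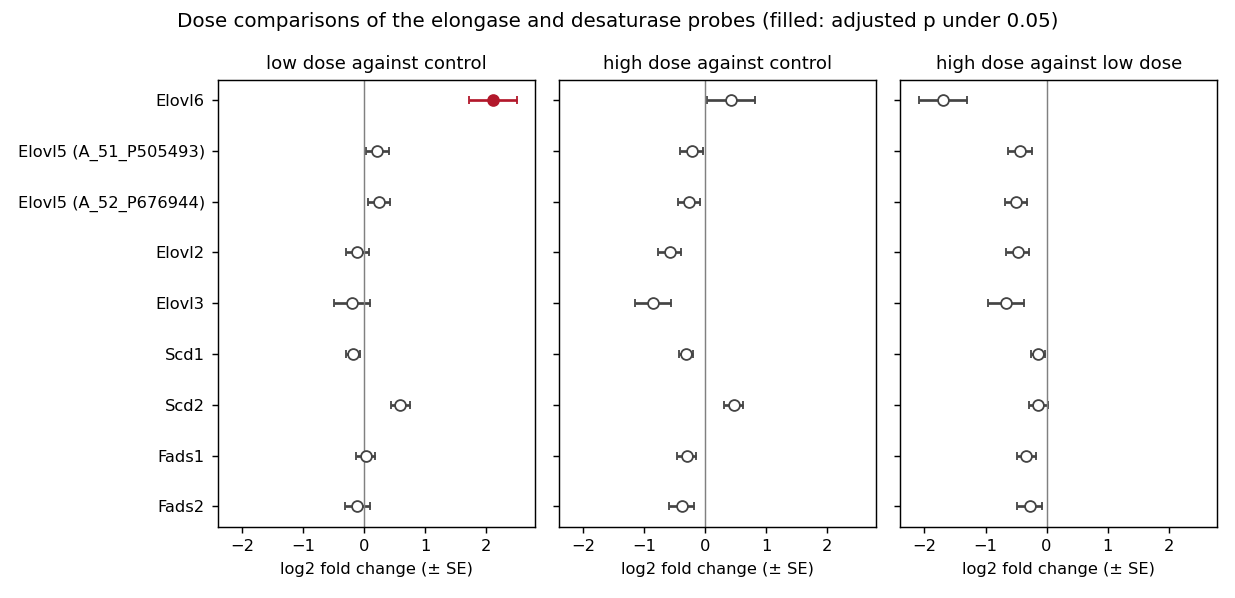
Log2 fold changes ± SE of the 9 probes in the 3 comparisons, 1 panel each. The filled point is the value with an adjusted p under 0.05, Elovl6 at 2.12 for low dose against control.

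**Figure D4:**
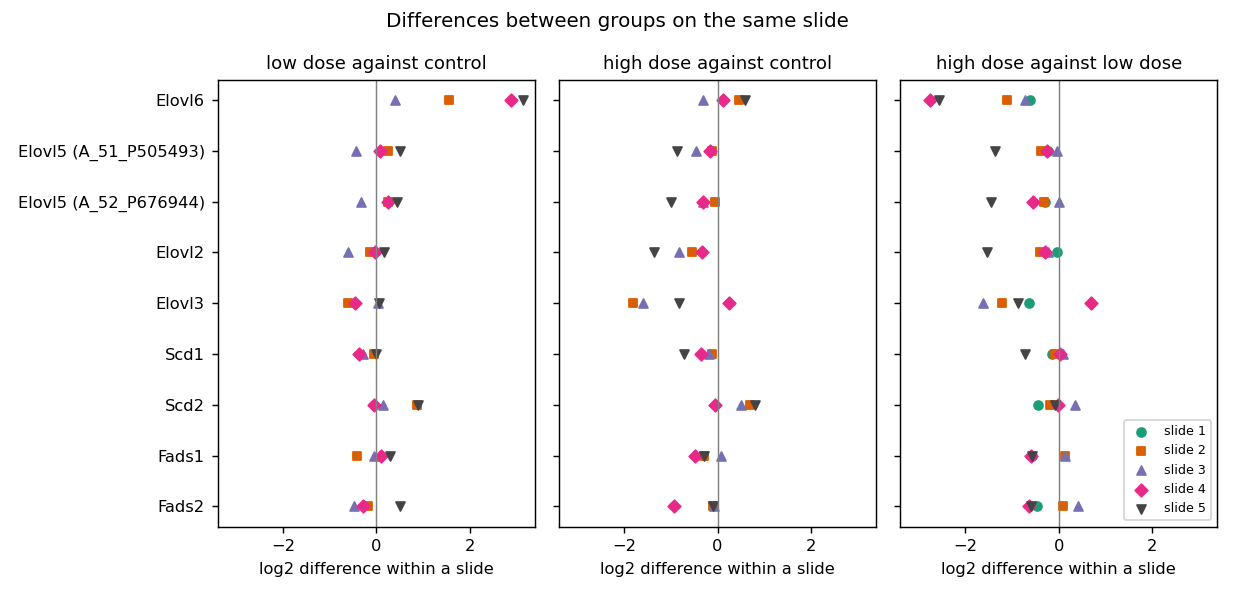
Log2 differences between groups within each slide for the 9 probes, 1 symbol per slide, where each group has 1 or 2 livers on a slide. Elovl6 is higher at the low dose than in control on 4 of 4 slides (0.39 to 3.15). Elovl2 is lower at the high dose than in control on 4 of 4 slides (-1.36 to -0.33), as are both Elovl5 probes, Fads2 and Scd1.

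The genes that supply the family with palmitate, acetyl-CoA and NADPH were examined next, 12 of 12 measured. At the low dose 3 of them rose and 0 fell, where 0.212% of all probes passed. A positive difference from control was found for 11 of 12, beside 49.3% of all probes, and the median was 0.91. Thrsp, which promotes lipogenic gene activity, rose by 2.83 ± 0.41 in log2 units (SE, adjusted p = 0.0103). Fasn, the fatty acid synthase that makes palmitate, rose by 2.36 ± 0.36 (adjusted p = 0.0142), and Acly, the citrate-cleaving source of cytosolic acetyl-CoA, by 1.91 ± 0.36 (adjusted p = 0.0397). Lists show 1 probe per gene. With the mean of a gene's probes Fasn gave 1.75 (adjusted p = 0.111) and Acly 2.08 (adjusted p = 0.0700), and Acaca and Thrsp passed. Acly also did not pass with the array median (adjusted p = 0.0681), normexp background (0.0538) or no filter (0.0684). With mouse number as a block only Thrsp passed. The Thrsp probe was saturated on 1 of 18 arrays, and with that value set to missing the difference was 2.74. With slide as a block or brightness as a covariate 0 of 12 passed, with medians of 0.80 and 0.65, and leaving out single mice gave 1 to 4, with Thrsp alone left without control mouse 1 or low-dose mouse 6. Mlycd, which degrades malonyl-CoA, had the only negative value, -0.38. At the high dose against control 0 of 12 passed, 6 were higher and 6 lower, with a median of -0.00. At the high dose against the low dose 0 of 12 passed and 11 were lower, with a median of -0.93.

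The partners of the elongases in the elongation cycle did not pass in any comparison, 0 of 8 measured. These are the reductases, dehydratases and other elongases, and their low-dose median was 0.06. Among them Elovl7, another elongase, gave 1.17 ± 0.33 (SE, adjusted p = 0.149), and Hacd3, a dehydratase, gave -0.36 ± 0.08 (adjusted p = 0.0672). Hacd3 did pass at the low dose when only probes above background on all arrays were kept, and with trend and robust moderation. Tecr, the reductase of the last step, gave 0.05 and Hsd17b12, the reductase of the second step, -0.23. Of the other desaturases and the cytochrome b5 electron donors 0 of 10 passed, with a low-dose median of 0.10. At the low dose 6 were higher and 4 lower than in control, and Scd3 gave 0.23, Fads3 0.09 and Cyb5r3 0.23. An unadjusted p under 0.05 was reached only by 1 lower gene, which is not among those named. The median was -0.05 with normexp background and -0.01 over the 7 genes left when probes had to be above background on all arrays.

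Genes that use the products were mixed. Of 12 measured genes for activating and remodelling acyl chains, 1 rose at the low dose, Gpam, which starts glycerolipid synthesis, by 2.06 ± 0.33 in log2 units (SE, adjusted p = 0.0161), and the median was -0.01. Gpam did not pass with normexp background, slide as a block or brightness as a covariate, nor without control mouse 5 or low-dose mouse 6. The peroxisomal genes for the final shortening step to docosahexaenoic acid had 0 of 10 past the threshold at the low dose. In this list 9 of 10 were lower and 1 higher, with a median of -0.17, where 49.3% of all probes were higher. The direction turned with normexp background, where 6 of 10 were higher and the median was 0.13. Of 15 regulators 0 passed at the low dose, with a median of 0.04. Srebf1, which encodes SREBP-1c, gave 1.02 ± 0.27 (adjusted p = 0.122) and Insig1, which retains SREBP precursors, 0.93 ± 0.29 (adjusted p = 0.191). Mlxipl (ChREBP) gave 0.28, Nr1h3 (LXR-alpha) 0.32 and Ppara -0.25. At the high dose against control and against the low dose no gene of these lists passed.

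**Figure D5:**
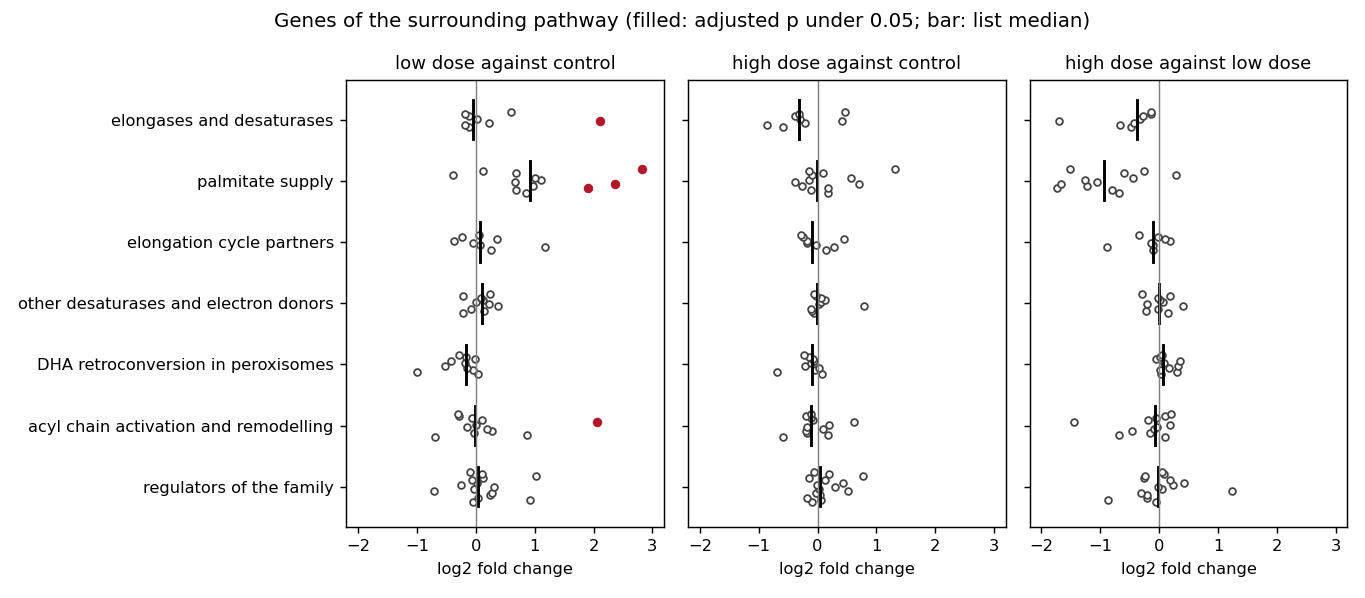
Log2 fold changes of the genes of the surrounding pathway in the 3 comparisons, 1 point per gene, with filled points for an adjusted p under 0.05 and a bar at each list's median. At the low dose against control the palmitate supply genes have a median of 0.91, and the elongases and desaturases one of -0.04.

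Markers of other cell types were set beside these results. Alb and Apoa1 were saturated on 18 and 17 arrays, so hepatocyte markers were summed over the 6 that were never saturated. On the linear scale these sums had medians of 426 in control (range 329.8 to 539), 436 in low-dose (396 to 546) and 376 in high-dose livers (338 to 468). Summed over all 8 markers, saturated ones included, the medians were 1057 in control, 930 in low-dose and 850 in high-dose livers. Of these 8 markers, 5 were lower at the low dose (median log2 fold change -0.08) and 7 at the high dose (median -0.17) than in control. None passed the threshold, and an unadjusted p under 0.05 was reached by 2 at either dose, both lower. Of the adipocyte markers 3 of 8 were kept, and Adipoq, Lep and Plin1 were well above background on no array. The sum over all 8, kept or not, had medians of 4.75 in control (3.75 to 5.72), 4.67 in low-dose (3.39 to 6.15) and 4.64 in high-dose livers (1.96 to 6.45). The 5 cholangiocyte markers were all higher at the low dose (median 0.47) and 4 of 5 at the high dose (median 0.26), and 6 of 7 Kupffer cell markers were higher at either dose (medians 0.20 and 0.34), none of them past the threshold. Of 7 lymphocyte markers 5 were higher at the low and 6 at the high dose than in control, and 7 of 7 at the high than at the low dose, with none past the threshold. The cholangiocyte sums ranged over 8.74 to 21.5 in control, 9.94 to 29.7 in low-dose and 10.4 to 95.3 in high-dose livers, and the Kupffer cell sums over 27.6 to 85.4 in control, 34.8 to 96.2 in low-dose and 40.3 to 148.9 in high-dose livers. Lymphocyte sums ranged over 2.55 to 5.40 in control, 3.18 to 7.03 in low-dose and 3.92 to 9.77 in high-dose livers. The stellate cell sums had medians of 60.5 in control (11.1 to 78.1), 49.3 in low-dose (16.1 to 83.7) and 20.3 in high-dose livers (7.86 to 84.6), and the endothelial sums 24.1 in control (20.8 to 35.5), 26.1 in low-dose (19.7 to 43.6) and 26.6 in high-dose livers (16.3 to 35.6), with 0 of 7 markers of either list past the threshold. Their part in the results was not tested. In whole liver RNA, fewer cells of a type and less RNA per cell cannot be told apart.

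Genes whose levels most resembled each member over the 18 arrays were ranked by Pearson correlation among 12959 genes, as a description, because all points share their arrays. Elovl6 was most like Acly (0.98), Fasn (0.94) and Agtrap (0.94), and within groups these values were 0.96, 0.84 and 0.87. Elovl5 was most like Igfbp3 (0.84), Aqp8 (0.83) and Fhl1 (0.83). Scd1 was most like Nup133 (0.89), Apoa4 (0.87) and Suclg1 (0.84), and Scd2 most like Mlstd2 (0.87), Synj1 (0.85) and Hivep3 (0.81). Elovl2 was most like Impa2 (0.83), Slc39a4 (0.82) and Lrp2bp (0.82), and Elovl3 most like Tmtc3 (0.81), Rad51c (0.75) and Nfxl1 (0.75). Fads1 was most like Adamtsl4 (0.82), Ptcd3 (0.79) and Gbe1 (0.76), and Fads2 most like Vav3 (0.79), Des (0.79) and Tm7sf2 (0.77). Within groups the values of the members other than Elovl6 ran from 0.60 (Scd2 with Hivep3) to 0.92 (Elovl5 with Igfbp3). No gene was among the 3 closest of more than 1 member.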

How the data were processed

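Scanner output of 18 one-colour Agilent arrays was used, with 45018 spots each, from 3 groups of 6 mice. Per the file headers the deposited intensity is the processed Cy3 signal with its background subtracted, beside flags for saturation, outliers and signal above background. Agilent Feature Extraction 9.5 and limma are listed in the submitters' processing notes, with no steps. The authors' deposited value table (22514 probes) holds log2 values, with scaling and centring not stated. It was used as an alternative.

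Signals were taken to log2 and the array's 75th percentile was subtracted. Spots with outlier flags were dropped, spots of 1 probe averaged, and probes kept when well above background on at least 6 arrays. Gene names are those of the files, and coordinates are their mm8 positions, without exon or UTR annotation. Every kept probe was tested in 1 model with group as its only term (limma 3.58.1, lmFit and eBayes, R 4.3.3), with Benjamini-Hochberg adjustment over all of them and a threshold of 0.05. All tests are 2-sided. Precision is limited by the number of arrays. The procedure was also run on simulated data with independent normal values, the same spread in every group and no slide, position or brightness differences. That run therefore cannot tell how such differences affect the calls. Members, lists and motifs were chosen with earlier results of these data known. For each member the 3 most correlated genes with a symbol are named, and of each list the genes past the threshold, with other named ones picked after their values were seen. Alternatives were other scalings, background methods, probe filters, probe summaries, sample sets and moderation, slide or mouse number as a block, brightness as a covariate, the deposited table, and leaving out each mouse. Repeating them for the palmitate supply genes, and summing only unsaturated hepatocyte markers, were added after seeing the data.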

Additional observations from a re-analysis of the deposited data

Results flagged for a closer look

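Of 27 sets of 6 livers (9 probes in 3 groups), 3 had a liver set apart from the other 5 by Dixon's criterion, where chance gives about 1 in 20. Scd1 in high-dose mouse 2 was the lowest of its group at 7.18, with the next liver at 7.81, and this mouse also had the lowest level of Elovl2 and of both Elovl5 probes. Fads1 in high-dose mouse 3 was the highest of its group at 4.59, with the next at 4.10. Fads1 in low-dose mouse 2 was the lowest of its group at 3.93, with the next at 4.45.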

How the results depend on the processing

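Of 882 repeats of single-probe differences, 854 kept their direction and side of the threshold, 15 lost the call (all Elovl6 at the low dose) and 13 turned sign. The Elovl6 low-dose difference stayed at 1.73 to 2.46 on the log2 scale over 33 alternatives, and 18 of them called it. No other elongase or desaturase probe was called under any of them. The count of elongase and desaturase probes called at the low dose, 1, was 0 with the array median, normexp, no filter, slide block, replicate block (mouse number) and brightness covariate, and 0 to 1 without single mice. For Elovl6 the adjusted p was 0.0681 with the array median, 0.0614 with normexp, 0.0623 with no filter and 0.0845 with the replicate block. Over all probes 54 were called at the low dose, against 15 with the array median, 7 with normexp, 19 with no filter, 147 with probes above background on all arrays, 29 with the mean of a gene's probes, 128 with only the groups compared, 137 with trend and robust moderation, 4 with slide block, 14 with replicate block, 0 with the brightness covariate and 8 to 122 without single mice (122 without high-dose mouse 2). For high against low dose 11 were called, against 7 with the array median, 1 with normexp, 4 with no filter, 5 with the brightest probe per gene, 6 with the mean of probes, 0 with only the groups compared, slide block or replicate block, and 0 to 22 without single mice. High dose against control gave 0 throughout. Signs turned only at the low dose, none called. Scd1 gave 0.082 with quantile normalisation, 0.12 with normexp and 0.031 in the deposited table. Elovl2 gave 0.25 with normexp, Elovl3 0.17 with normexp and 0.16 with brightness, and Fads2 0.24 with normexp, 0.023 with brightness and 0.018 without control mouse 3. Fads1 ran from -0.048 to 0.13 without single mice, and was below 0 without control mouse 4 or 6 or low-dose mouse 1 or 6. The cause was not tested. With normexp the median of all probes was -0.14 at the low dose against control and 0.11 at the high against the low dose, against -0.00 and 0.01 as reported. Correlations of deviations between mice of the same number were -0.23 to 0.22 for low dose and control and -0.02 to 0.33 for high dose and control. For high and low dose they were -0.29 to 0.24. Mice of different number were not compared and some same-number mice shared a slide, so these values cannot tell whether mouse numbers pair the mice. Scd1 saturation limits that probe.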

Other observations

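The members did not vary as one block across livers. Pearson correlations over the 18 arrays, given as a description because the arrays are shared, were 0.82 between Fads1 and Fads2 (0.79 within groups), 0.78 between Elovl2 and Scd1 (0.69 within groups) and 0.74 and 0.76 between Elovl2 and the Elovl5 probes. Elovl6 correlated with both Elovl5 probes at 0.64 and with Scd1 at -0.12 (0.01 within groups). Elovl3 and Fads2 were at -0.01, and Scd2 and Scd1 at -0.33 (-0.01 within groups). High-dose mouse 2, low for Elovl2, Elovl5 and Scd1 together, is part of each of these values.

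Among the regulators, Nr1d1, a circadian repressor, gave 1.23 on the log2 scale at the high dose against the low dose (adjusted p = 0.305) and -0.71 at the low dose against control (adjusted p = 0.450), neither past the threshold.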
